A study of Homo sapiens with 14 samples.

Results

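The comparison of epidermal growth factor (EGF) with angiogenin (ANG) after 5 h in Panc-1 cells used 3 of the 14 RNA sequencing libraries of the series: Panc-1 with EGF for 5 h, Panc-1 with ANG for 5 h, and untreated Panc-1 (mock) as a reference level. Panc-1 is an established human pancreatic cancer cell line with a mesenchymal character. EGF was given at 50 ng/ml and ANG, which the labels also call hRNase5, at 1 µg/ml, both in serum-starved cells, so dose and ligand differ together. The mock library is labelled untreated, with no time. In every value set against it, ligand and time in starved medium cannot be told apart. Genes were taken when their span from start to end was at least 400 bp and their level was at least 1 RPKM (reads per kilobase of transcript per M mapped reads) in the EGF or the ANG library. That kept 11554 of the 23040 genes in the files. The other libraries are ANG and EGF at 1 and 24 h in Panc-1, and mock, ANG and EGF at the same 3 times in AsPC-1, a pancreatic cancer cell line of more epithelial character. Each condition has 1 library, so the 5 h differences have no replicate check and carry no p-value.

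EGF is the classical ligand of the receptor tyrosine kinase EGFR. The activated receptor signals through RAS, RAF, MEK and ERK, and ERK switches on immediate-early genes such as EGR1, FOS and JUN within minutes, without new protein synthesis. A later wave holds genes that shut the pathway down again, among them the dual-specificity phosphatases (DUSP), which dephosphorylate MAP kinases, and the Sprouty proteins, which block receptor signalling to RAS and RAF. AP-1, the dimer of FOS and JUN proteins, drives genes of the urokinase system, through which tumour cells degrade matrix. ANG is a secreted ribonuclease held inactive in the cytosol by the ribonuclease inhibitor RNH1, with plexin-B2 (PLXNB2) known as a receptor. The series title names ANG as a ligand of EGFR. Setting the 2 ligands side by side in one cell line describes RNA levels and does not measure binding to the receptor.

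The promoters below show kinds of element that the EGFR to ERK pathway is known to act through. They are of 4 genes that hold a match, out of those at least 2-fold higher with EGF than with ANG. Each promoter is the 250 bases before the RefSeq gene start in GRCh38.p14, written 5′ to 3′ on the gene's own strand. EGR1 (chr5:138465229-138465478, plus strand) holds 2 matches to the CArG box, the element bound by serum response factor. NAB2 (chr12:57088864-57089113, plus strand) holds the EGR motif GCGGGGGCG. PLAUR (chr19:43670170-43670419, minus strand) holds the AP-1 motif TGANTCA, and VGF (chr7:101165570-101165819, minus strand) the cAMP response element TGACGTCA. Capitals mark each match.
EGR1: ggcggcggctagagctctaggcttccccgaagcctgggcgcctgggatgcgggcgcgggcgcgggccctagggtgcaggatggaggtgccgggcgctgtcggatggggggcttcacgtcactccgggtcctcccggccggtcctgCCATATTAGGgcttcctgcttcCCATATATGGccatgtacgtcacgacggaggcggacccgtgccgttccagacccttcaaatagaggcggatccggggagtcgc
NAB2: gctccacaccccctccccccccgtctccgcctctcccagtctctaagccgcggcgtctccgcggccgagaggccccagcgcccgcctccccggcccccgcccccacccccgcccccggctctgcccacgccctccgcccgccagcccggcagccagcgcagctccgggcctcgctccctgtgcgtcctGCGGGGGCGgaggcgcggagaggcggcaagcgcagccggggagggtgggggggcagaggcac
PLAUR: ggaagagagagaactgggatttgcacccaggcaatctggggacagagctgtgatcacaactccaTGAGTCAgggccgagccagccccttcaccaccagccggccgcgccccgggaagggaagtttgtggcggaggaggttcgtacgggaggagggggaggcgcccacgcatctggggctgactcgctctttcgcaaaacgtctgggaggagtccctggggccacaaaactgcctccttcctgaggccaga
VGF: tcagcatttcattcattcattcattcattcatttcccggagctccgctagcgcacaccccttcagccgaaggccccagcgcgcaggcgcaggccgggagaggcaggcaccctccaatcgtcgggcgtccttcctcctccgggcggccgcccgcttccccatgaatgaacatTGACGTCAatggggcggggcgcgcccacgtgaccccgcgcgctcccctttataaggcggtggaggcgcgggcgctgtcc

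Counted back from the gene start, the first matches lie at -105 in EGR1, -62 in NAB2, -186 in PLAUR and -79 in VGF. The motifs were chosen after the expression values were seen, were searched on both strands and were counted separately. Promoters were found for 16 of the 23 genes at least 2-fold higher with EGF, and not for 7, among them PHLDA2, PAPL, BLID, PRSS22, DUSP5 and C17orf107. The AP-1 motif was in 3 of the 16 (18.8%: CCL7, MAP2K3 and PLAUR), against 3.61% of the 8171 kept genes with a promoter and 6.60% of all 27305 promoters of the same length. The EGR motif was in 4 of the 16 (25%: ANGPTL4, DGKD, DNMBP and NAB2), against 8.04% and 4.68%. The cAMP response element was in VGF alone among the 16, against 2.94% and 1.77%, and the CArG box in EGR1 alone, against 0.893% and 1.14%. These shares describe letters in a window and say nothing of binding. SPRY4, DUSP6 and CDKN1A were not among the genes with a match to any of these motifs.

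The files imply a depth of 11.1 M reads with EGF, 13.0 M with ANG and 15.5 M in mock (range 11.1 to 23.7 M over all 14 libraries). At 1 RPKM a 2 kb transcript then holds 22.2 reads with EGF and 25.9 with ANG, which gives a counting SD of 0.417 on a plain log2 difference and 0.209 on a difference of log2(RPKM + 1), the scale used here. At 20 RPKM those SDs are 0.0933 and 0.0888. Genes with a span under 400 bp took 11.2% of the reads with EGF, 11.4% with ANG and 6.22% in mock. Of the 5 Panc-1 markers CDH2 separated the lines most clearly, at 18.3 to 23.4 RPKM in the 7 Panc-1 libraries and at most 0.110 RPKM in AsPC-1. VIM and AXL were higher in Panc-1 by a smaller fold. LOX was at most 0.790 RPKM in any library, and ZEB1 did not separate the lines. The 7 AsPC-1 markers summed to 66.8 RPKM with EGF, 66.5 with ANG and 73.2 in Panc-1 mock, against 3097 in AsPC-1 mock. Of the 6 endothelial markers, 4 were listed at 0 with either ligand and all 6 summed to 0.110 RPKM with EGF and 0.0700 with ANG. Among the leukocyte markers CD68 was at 44.9 RPKM with EGF and 39.3 with ANG, and LYZ at 3.53 and 2.32 RPKM. The other leukocyte markers were below 1 RPKM with either ligand.

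With EGF the cells carried more RNA of the ERK feedback genes SPRY4, DUSP6 and DUSP5, of the urokinase receptor PLAUR, and of EGR1 and its corepressor NAB2. Differences are given as log2(RPKM + 1) with EGF minus log2(RPKM + 1) with ANG, a scale that understates the change of genes near or below 1 RPKM. On it, 23 of 11554 genes (0.199%) were at least 2-fold higher with EGF and 2 (0.0173%) at least 2-fold lower. At 1.5-fold the counts were 131 (1.13%) higher and 72 (0.623%) lower. The median over all genes was -0.05 with an SD across genes of 0.21, and 4399 genes (38.1%) lay above 0, so the excess of higher genes was in the tail and not in the bulk. It also depended on level. Among genes with a mean of 20 RPKM or more, 43 were 1.5-fold higher and 2 lower. Among those under 5 RPKM, 41 were higher and 53 lower, and both 2-fold lower genes were in this class. With a pseudocount of 0.1 in place of 1, which gives low genes more weight, the 2-fold counts were 58 higher and 40 lower.

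**Figure D1:**
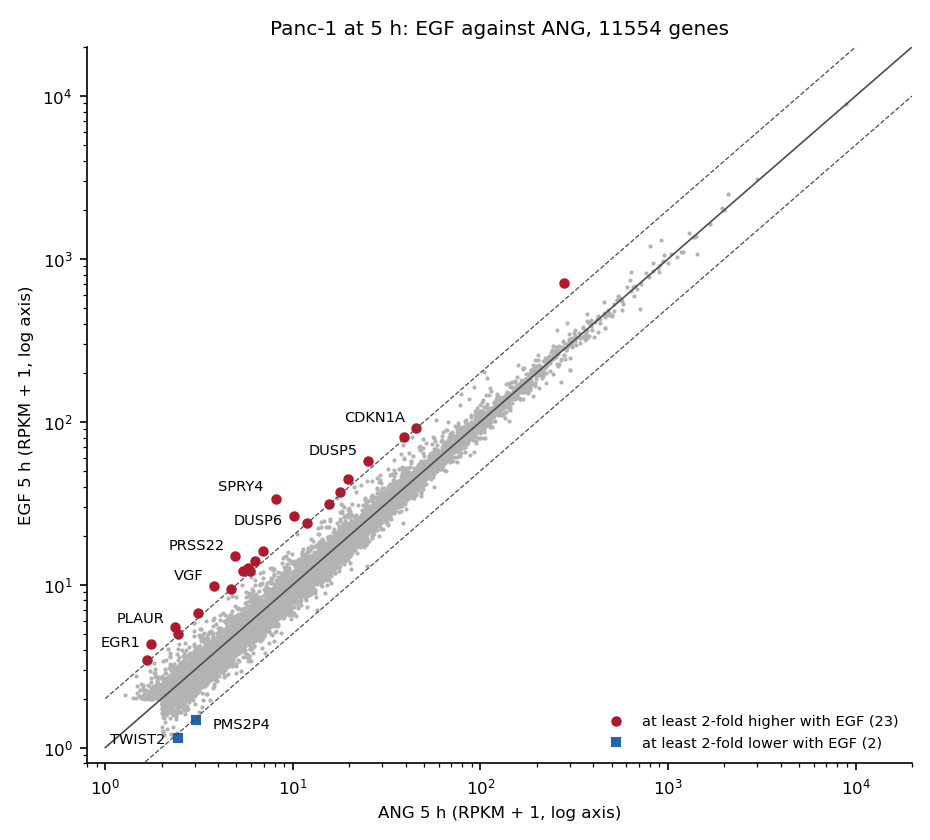
Levels of the 11554 kept genes in Panc-1 after 5 h, ANG on the x axis and EGF on the y axis, both as RPKM + 1 on log axes, 1 library each. The solid line marks equal levels and the dashed lines 2-fold. The 23 red points lie on or above the upper line, with CCL7 (2.44 RPKM with EGF) at the low end and CDKN1A (90.1 RPKM) further up, and the 2 blue squares, TWIST2 and PMS2P4, lie at the low end.

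SPRY4, a Sprouty inhibitor of receptor signalling (hg19 chr5:141689992-141704620, introns included), stood furthest apart. It was at 32.6 RPKM with EGF, 7.10 with ANG and 13.9 in mock, a difference of 2.05. ANG was below mock and EGF above it. DUSP6, the phosphatase that acts on ERK in the cytoplasm (chr12:89741837-89746296), was at 25.2 RPKM with EGF, 9.09 with ANG and 7.47 in mock (1.38). DUSP5, its nuclear counterpart (chr10:112257625-112271302), was at 56.2, 24.2 and 32.7 RPKM in the same order (1.18). SPRY2, another Sprouty gene, was at 19.4 RPKM with EGF, 9.55 with ANG and 9.77 in mock (0.95). For these genes the EGF library was the highest of the 3. Of 21 listed MAPK feedback genes 19 were measured, and 17 were higher with EGF, 7 of them at least 1.5-fold, 3 at least 2-fold and none 1.5-fold lower. Their median difference was 0.37, beside -0.05 over all genes, of which 38.1% were higher with EGF.

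EGR1, a zinc-finger immediate-early factor (chr5:137801181-137805004), was low in all 3 libraries: 3.30 RPKM with EGF, 0.75 with ANG and 1.32 in mock (1.30). The EGF value was a fraction of the 29.1 RPKM in the EGF library of 1 h. NAB2, which binds EGR proteins and represses their targets (chr12:57482677-57489259), was at 13.1 RPKM with EGF, 5.27 with ANG and 8.35 in mock (1.17). Its span overlaps STAT6, and whether counting used strand is not given in the sources used here, so reads of the 2 genes may be mixed. JUN, a subunit of AP-1, was at 70.8, 37.6 and 27.1 RPKM (0.90), and FOSL1, its FOS-family partner, at 63.2, 40.9 and 24.8 RPKM (0.62). In both, ANG lay above mock and EGF above ANG at 5 h. After 24 h JUN was at 38.6 RPKM with EGF and 25.5 with ANG, and FOSL1 at 36.3 and 20.5 RPKM. FOS was below 1 RPKM with either ligand (0.99 with EGF and 0.71 with ANG) and was not among the genes kept. PLK3, a stress-responsive kinase whose span overlaps TCTEX1D4, was at 10.9, 5.69 and 5.63 RPKM (0.83), and IER3, a survival gene, at 163, 91.7 and 112 RPKM (0.82). Of 31 listed immediate-early genes 22 were measured and all 22 were higher with EGF, from 0.02 to 1.30, with 11 at least 1.5-fold higher. A gene could pass the filter on its EGF level alone, as EGR1 did. The list's median was 0.57 (0.39 with no filter on low values), the highest of the 31 gene lists. Set against mock, its median was 0.58 with EGF and -0.08 with ANG, while the medians over all genes were -0.14 and -0.10.

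Genes of the urokinase system, which turns plasminogen into plasmin at the cell surface, were apart in both the receptor and the protease. PLAUR, the urokinase receptor (chr19:44150248-44174502), was at 4.51 RPKM with EGF, 1.34 with ANG and 2.53 in mock (1.24), so ANG was below mock and EGF above it. PLAU, urokinase itself, was at 184 RPKM with EGF and at 108 and 107 RPKM with ANG and in mock (0.77), and its span overlaps C10orf55. Of 17 listed genes of the urokinase system and other proteases 10 were measured, 8 were higher with EGF, and the median was 0.22 (0.0461 with no filter on low values). Over all kept genes 38.1% were higher with EGF. Against mock the urokinase and protease list's median was -0.05 with EGF and -0.37 with ANG.

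Among the ligands of the receptor itself, HBEGF, heparin-binding EGF-like growth factor, was at 10.2 RPKM with EGF, 4.96 with ANG and 4.50 in mock (0.91). TGFA, transforming growth factor alpha, was at 2.95, 1.58 and 1.81 RPKM (0.61). EREG, epiregulin, was higher than mock in both ligand libraries, at 12.9 RPKM with EGF and 9.10 with ANG against 2.66 in mock (0.46). After 24 h EREG was at 3.34 RPKM with EGF and 2.08 with ANG. EGFR was at 41.9, 38.7 and 43.7 RPKM, a difference of 0.11. Of 16 listed ligands and receptors of the EGF family 10 were measured, 7 were higher with EGF, 2 of them at least 1.5-fold, and the median was 0.19 (0.0584 with no filter on low values). The share of all kept genes higher with EGF was 38.1%. Of 6 listed genes around ANG 5 were measured, with a median of -0.06 and none at least 1.5-fold apart. ANG's own transcript was at 2.83 RPKM with EGF, 3.29 with ANG and 4.78 in mock (-0.16), within a span shared with RNASE4. RNH1 was at 96.1, 91.7 and 89.3 RPKM (0.07), and PLXNB2 at 50.7, 52.8 and 66.3 RPKM (-0.06). SDC4, the proteoglycan syndecan-4, was at 171, 142 and 291 RPKM (0.27), and RNASE4, which shares its span with ANG, at 2.54, 3.31 and 6.85 RPKM (-0.28).

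The other genes at least 2-fold higher with EGF came from several functions. PRSS22, a secreted serine protease of the tryptase family (chr16:2902728-2908171), was at 14.0 RPKM with EGF, 3.92 with ANG and 4.67 in mock (1.61). VGF, a secreted precursor of neuropeptides (chr7:100805790-100808852), was at 8.76, 2.78 and 3.60 RPKM (1.37). In both, ANG and mock were close and EGF stood apart. ANGPTL4, a secreted inhibitor of lipoprotein lipase (chr19:8429011-8439257), had another order: 43.7 RPKM with EGF, 18.8 with ANG and 47.6 in mock (1.18), so EGF was near mock and ANG below it. PHLDA2, an imprinted gene of a pleckstrin-homology protein, was at 11.2, 4.40 and 9.93 RPKM (1.17), also with EGF near mock. HAS3, a hyaluronan synthase, was at 11.6, 4.77 and 5.45 RPKM (1.13), in a span that overlaps CHTF8. BCL10, an adaptor in NF-kB signalling, was at 79.7, 38.1 and 36.6 RPKM (1.05). CDKN1A, the CDK inhibitor p21, was at 90.1, 44.2 and 44.3 RPKM (1.01), with ANG and mock level.

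BCL2A1, an anti-apoptotic BCL2 relative, was at 22.9 RPKM with EGF, 10.9 with ANG and 9.23 in mock (1.01). MAP2K3, a kinase that activates p38, was at 8.37, 3.68 and 3.94 RPKM (1.00), and DGKD, a diacylglycerol kinase, at 30.4, 14.6 and 16.1 RPKM (1.01). A further 6 were PAPL (1.22), BLID (1.10), DNMBP (1.06), the sulfatase ARSI (1.05), the chemokine CCL7 (1.04) and C17orf107 (1.03). Of these, BLID overlaps LOC399959, DNMBP overlaps NCRNA00093 and C17orf107 overlaps CHRNE. CCL7 was at 2.44 RPKM with EGF and 0.67 with ANG, and BLID at 5.69 and 2.12 RPKM, levels at which few reads stand behind each value. Just inside the 2-fold limit were MAP2K3 and DGKD, and just outside it were B3GNT5 (0.99), CREB5 (0.97) and SERPINB8 (0.97).

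The genes lower with EGF were fewer and at lower levels. TWIST2, a transcription factor of mesenchymal cells (chr2:239756673-239795893), was at 0.15 RPKM with EGF, 1.43 with ANG and 1.58 in mock (-1.08), and at 1.65 RPKM with EGF for 24 h. PMS2P4, a pseudogene of PMS2 that may share reads with its relatives, was at 0.47, 2.03 and 1.02 RPKM (-1.04). Just outside the limit were CNFN (-0.98), the pseudogene SUGT1P1 (-0.96) and POLG2 (-0.94). SMAD6, an inhibitor of BMP signalling (chr15:66994674-67074337), was at 2.83 RPKM with EGF, 6.10 with ANG and 11.1 in mock (-0.89), so both ligands lay below mock and EGF further below. DBP, a clock-controlled transcription factor, was at 0.65, 2.14 and 2.30 RPKM (-0.93). KLHL24 was at 6.25, 10.9 and 18.7 RPKM (-0.71), and ELF3, an epithelial ETS factor, at 7.37, 12.2 and 26.2 RPKM (-0.66). SMAD6, KLHL24 and ELF3 share the order mock, ANG, EGF from high to low. Mock was above both ligands in 52.8% of the 72 genes 1.5-fold lower and in 55.1% of all kept genes.

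**Figure D2:**
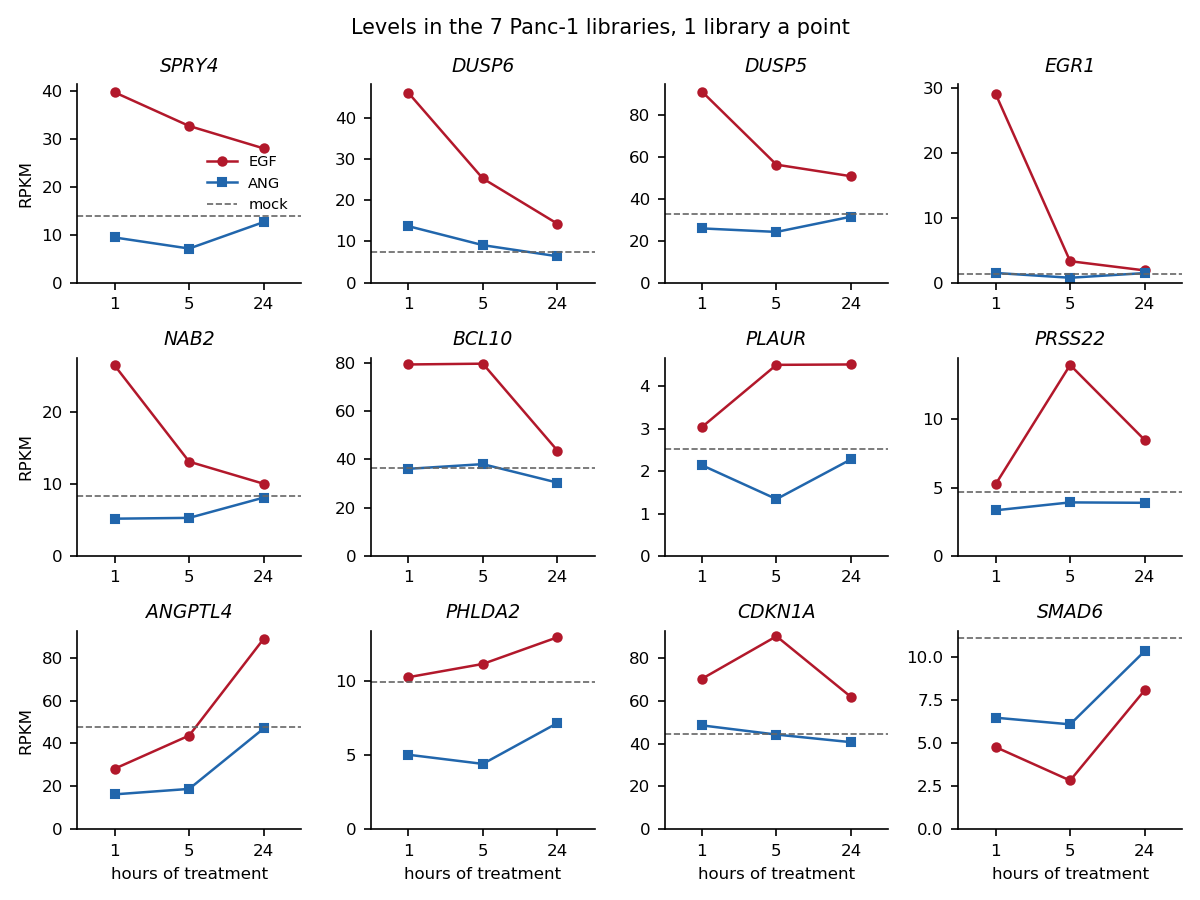
RPKM on a linear axis from 0 in the 7 Panc-1 libraries for 12 genes, against hours of treatment at even spacing; red circles are EGF, blue squares ANG and the dashed line mock, each point 1 library. SPRY4, DUSP6, DUSP5, EGR1 and NAB2 are highest in the EGF library of 1 h, PRSS22 and CDKN1A in that of 5 h, BCL10 is level at 1 and 5 h, and SMAD6 is below mock throughout.

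Most of the 23 genes had mock between the 2 ligands. In 16 of them (69.6%) mock lay between and nearer ANG, in 5 it was below both, in 1 it lay nearer EGF and in 1 (ANGPTL4) it was above both. Over all kept genes mock lay between and nearer ANG in 6.94% and nearer EGF in 6.66%. It was above both in 55.1% and below both in 31.3%. When each library was centred on its median, 27 genes were at least 2-fold higher and the share of these nearer ANG was 44.4%. Of the 131 genes 1.5-fold higher, mock was below both ligands in 48 and between but nearer ANG in 48. Of the 72 genes 1.5-fold lower, mock was above both in 38. Because a gene that is far apart between EGF and ANG leaves more room for mock between them, these shares are read as a description only.

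Several gene lists stood far from mock with either ligand. The 25 measured cholesterol synthesis genes had a median against mock of -1.23 with EGF and -1.24 with ANG, and their median difference between ligands was -0.01. SCD, the stearoyl-CoA desaturase, was at 109 RPKM with EGF, 97.6 with ANG and 395 in mock. The 24 measured genes of the ATF4 and amino-acid stress response had medians against mock of 0.58 with EGF and 0.55 with ANG. SESN2, a stress-induced inhibitor of mTORC1 signalling, was at 109, 92.2 and 16.6 RPKM. SCD was at 112, 97.6 and 330 RPKM after 1, 5 and 24 h of ANG, and at 127, 109 and 277 RPKM with EGF. SESN2 was at 92.9, 92.2 and 16.6 RPKM with ANG, and at 143, 109 and 24.2 RPKM with EGF. With either ligand the 1 h and 5 h libraries thus lay far from mock in both genes, and the 24 h libraries nearer it. What sets these libraries apart was not tested. Since both ligands are set against the same mock library of no stated time, time in starved medium and ligand cannot be told apart in these values.

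Cell-cycle lists lay on the ANG side of the comparison by a small amount in this pair. The 27 measured G2/M genes had a median difference of -0.19, with 2 of 27 higher with EGF and none at least 1.5-fold apart either way. PLK1, the mitotic kinase, was at 62.0 RPKM with EGF, 86.6 with ANG and 22.8 in mock (-0.48), in a span that overlaps ERN2. CENPA, the centromeric histone, was at 33.2, 43.3 and 11.6 RPKM (-0.37). Both ligands were thus far above mock, and the list's medians against mock were 1.38 with EGF and 1.57 with ANG. The 28 measured G1/S and replication genes had a median of -0.18, with 4 of 28 higher with EGF. These counts stand beside 38.1% of all kept genes higher with EGF. Neither list kept its sign in the other pairs. The G2/M median ran from -0.43 in AsPC-1 at 5 h to 0.38 in AsPC-1 at 1 h. The G1/S median ran from -0.30 in AsPC-1 at 5 h to 0.37 in Panc-1 at 24 h. CCNE1, cyclin E1, was at 5.82, 8.80 and 8.40 RPKM (-0.52), and E2F1 at 20.9, 29.3 and 8.90 RPKM (-0.46). E2F7, an E2F repressor, went the other way, at 14.5, 8.94 and 3.07 RPKM (0.64). CDKN2C, the CDK inhibitor p18, was at 9.25, 15 and 6.47 RPKM (-0.64) and CDKN1B, p27, at 21.1, 28.4 and 21.1 RPKM (-0.42). CCND1, cyclin D1, was at 44.5, 37.0 and 64.1 RPKM (0.26).

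Of the further lists, 4 had medians of -0.16 or below: FOXO and PI3K feedback genes (14 measured, 3 higher with EGF, median -0.22), circadian clock genes (14 measured, 3 higher, -0.21), axon guidance genes (18 measured, 5 higher, -0.17) and the MYC network (10 measured, 3 higher, -0.16). In the same order 21.4%, 21.4%, 27.8% and 30% were higher with EGF, against 38.1% of all kept genes. Single members went against their list. BHLHE40, a repressor in the clock, was at 42.4 RPKM with EGF, 23.9 with ANG and 38.4 in mock (0.80). EPHA2, an ephrin receptor, was at 138, 86.1 and 91.2 RPKM (0.67), and MYC at 99.4, 65.9 and 55.2 RPKM (0.59). GADD45A, a stress-response gene, was at 70.2, 46.4 and 28.6 RPKM (0.59).

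Among NF-kB, chemokine and cytokine genes 19 of 23 measured were higher with EGF, with a median of 0.16 (0.0666 with no filter on low values) and 1 at least 1.5-fold higher. That one was LIF, a cytokine of the interleukin-6 family, at 50.6 RPKM with EGF, 31.0 with ANG and 33.1 in mock (0.69). Of 19 measured integrin and matrix genes 15 were higher, with a median of 0.10, and ITGA2, a collagen-binding integrin subunit, was at 62.1, 36.6 and 42.1 RPKM (0.75). Of 16 measured SRF and YAP targets 12 were higher, with a median of 0.08. Over all kept genes the share higher with EGF was 38.1%. TNFRSF12A, the receptor of TWEAK, was at 146, 77.9 and 48.3 RPKM (0.90) and ZYX, the focal adhesion protein zyxin, at 21.7, 14.1 and 18.0 RPKM (0.59), in a span that overlaps EPHA1. Lists near the all-gene median held none at least 1.5-fold apart among the unfolded protein response (18 measured, median -0.02), hypoxia and glycolysis (28, -0.02), interferon-stimulated genes (25, 0.03) and NRF2 antioxidant genes (14, 0.06). Of the 35 measured ribosome biogenesis genes 1 was 1.5-fold higher, RRP12, an export factor of ribosomal subunits, at 77.3, 48.2 and 27.9 RPKM (0.67), and the list's median was 0.05.

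**Figure D3:**
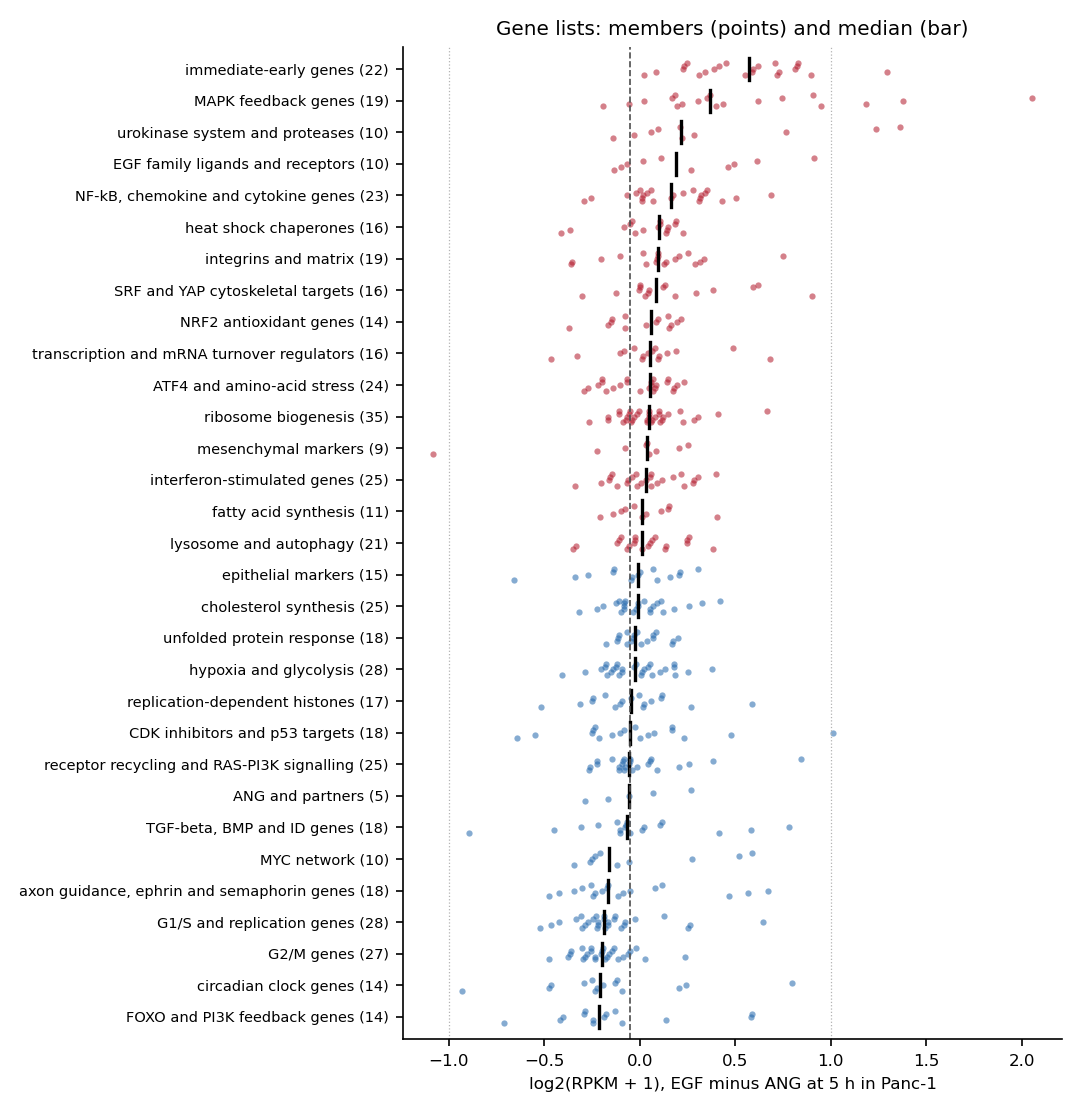
Differences of log2(RPKM + 1), EGF minus ANG at 5 h, for the measured members of 31 gene lists, with the number measured in brackets; points are genes, black bars list medians, the dashed line the median of all genes (-0.05) and dotted lines 2-fold. Immediate-early genes (median 0.57) and MAPK feedback genes (0.37) stand highest, and FOXO and PI3K feedback genes (-0.22) lowest. Red and blue mark lists with medians above and below 0.

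The same ligand difference in libraries that the 5 h Panc-1 pair did not use showed how far the 23 genes held elsewhere. There are 5 such pairs: Panc-1 at 1 and 24 h and AsPC-1 at 1, 5 and 24 h. In Panc-1, 22 of the 23 were higher with EGF at 1 h (median 0.56) and 23 of 23 at 24 h (0.73). Over all kept genes 58.9% and 57.4% were higher in these pairs. In AsPC-1 the counts were 15 at 1 h (median 0.26), 17 at 5 h (0.26) and 14 at 24 h (0.02), or 65.2%, 73.9% and 60.9%, against 50.2%, 59.3% and 34.3% of all kept genes. The all-gene medians of the 5 pairs lay between -0.10 and 0.05. Of the 23 genes, 6 stayed below 1 RPKM in every treated AsPC-1 library, and these differences say little for them: CCL7 (listed at 0), ARSI (at most 0.0300 RPKM), PAPL (0.05), BCL2A1 (0.150), C17orf107 (0.450) and BLID (0.460). Of the 23 genes 11 (47.8%) were higher with EGF in all 5 other pairs, against 9.36% of all kept genes. Among genes that reached 1 RPKM in AsPC-1, a limit set after the values were seen, these shares were 11 of 17 (64.7%) and 10.1%. Of the 23, 13 (56.5%) were higher at an unadjusted limma p under 0.05, against 9.33%. SPRY4 was higher by 1.97 and 1.09 in Panc-1 at 1 and 24 h and by 0.76, 0.62 and 0.91 in AsPC-1. CDKN1A ranged from 0.53 to 2.10 in the 5 pairs. DUSP6 differed between the lines, at 1.68 and 1.05 in Panc-1 and at -0.33, 0.04 and -0.12 in AsPC-1, and this difference was not tested. Of the 72 genes 1.5-fold lower at 5 h, 17 (23.6%) were lower in all 5 other pairs, against 5.28% of all kept genes. SMAD6 was one of them, from -0.19 to -0.73, while TWIST2 was between 0.00 and 0.14. TWIST2 was at most 0.04 RPKM in the treated AsPC-1 libraries, so its differences there say little.

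**Figure D4:**
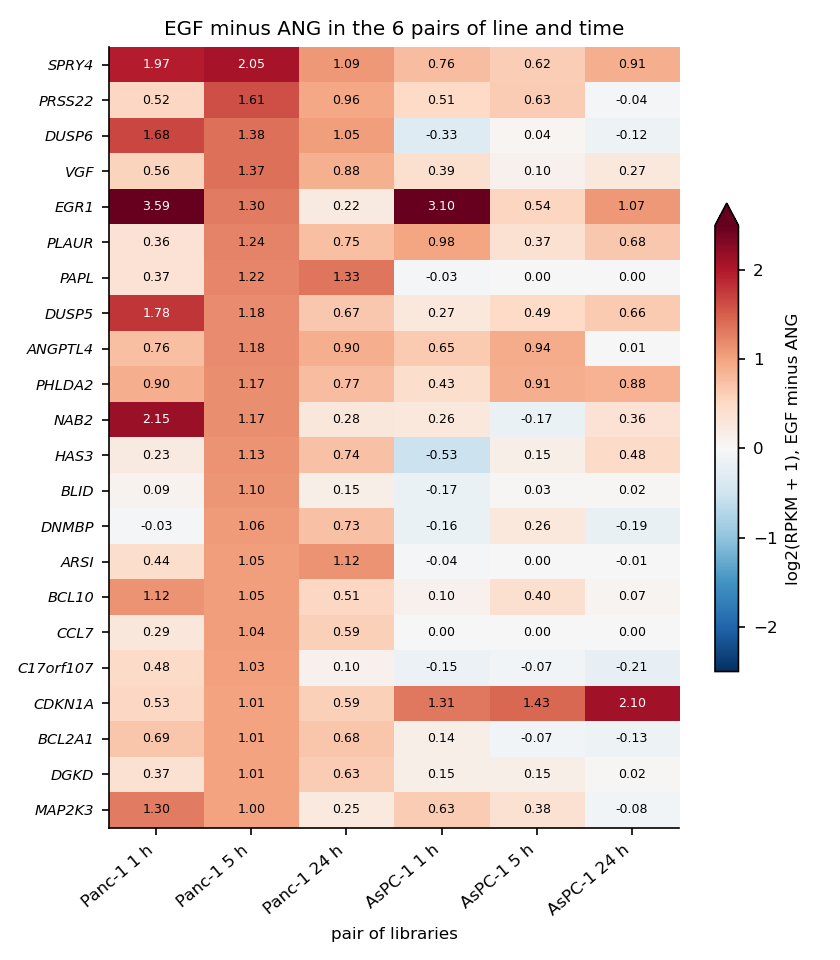
Difference of log2(RPKM + 1), EGF minus ANG, in the 6 pairs of line and time for 22 of the 23 genes at least 2-fold higher in the Panc-1 5 h pair, which chose them. Red is higher with EGF and blue lower; EGR1 exceeds the colour scale at 1 h (3.59 in Panc-1 and 3.10 in AsPC-1). SPRY4, PHLDA2 and CDKN1A are red in all 6 columns, while PAPL, ARSI and CCL7, all below 1 RPKM in the treated AsPC-1 libraries, are near 0 there.

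Fitted across the 5 other pairs with limma, 2 of 12622 genes (0.0158%) were higher with EGF after Benjamini-Hochberg adjustment and 0 (0%) lower, with 1745 genes at an unadjusted p under 0.05. The 2 were FOSL1 (0.97 ± 0.09 SE, adjusted p = 0.0377) and B3GNT5, a glycosyltransferase of glycolipids (0.73 ± 0.07 SE, adjusted p = 0.0377), both higher in 5 of 5 pairs. In the 5 h Panc-1 pair B3GNT5 was at 33.1 RPKM with EGF, 16.1 with ANG and 13.4 in mock. B3GNT5 is named for this test, after its values were seen. Neither call held when the Panc-1 1 h, Panc-1 24 h, AsPC-1 1 h or AsPC-1 5 h pair was left out, with limma adjusted p up to 0.303, and both held without the AsPC-1 24 h pair. None of the 23 genes passed with all 5 pairs, and ANGPTL4 passed without the AsPC-1 24 h pair (0.81 ± 0.07 SE, limma adjusted p = 0.0356). With all 5, PHLDA2 came nearest, at 0.78 ± 0.09 SE with a limma adjusted p of 0.0585, and was higher in 5 of 5 pairs. CDKN1A was at 1.19 ± 0.21 SE with a limma adjusted p of 0.153, and HBEGF at 1.00 ± 0.15 SE with 0.132.

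The difference of the 5 h Panc-1 pair from the other 5 was tested as a term of the same limma fit. The lone pair was assumed to vary like the others. The SD across genes was 0.21 in this pair, and from 0.22 (Panc-1 1 h) to 0.42 (AsPC-1 24 h) in the other 5. No gene was higher (0%) or lower (0%) after adjustment, and 245 had an unadjusted p under 0.05. TWIST2 differed from the other 5 pairs by -1.13 ± 0.14 SE. It was at most 0.04 RPKM in the treated AsPC-1 libraries, so the AsPC-1 pairs say little for it. BLID (1.08 ± 0.17 SE) and PRSS22 (1.09 ± 0.32 SE) both had a limma adjusted p of 1.00. In data simulated for this test, 37.0% of genes changed by 1 on the log2 scale and 97.5% of those changed by 2 were recovered, with 4 and 16 false calls beside 200 changed genes. These rates hold for 200 genes changed at once, and recovery with fewer changed genes was not simulated. Thus no gene is called particular to 5 h in Panc-1, and a difference near 2-fold would often be missed.

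By counts, the neighbouring pairs held more or similar numbers of genes 2-fold apart. Panc-1 at 1 h had 50 of 11618 (0.43%) higher with EGF and 8 (0.0689%) lower, and Panc-1 at 24 h had 18 of 11806 (0.152%) higher and 11 (0.0932%) lower. AsPC-1 at 5 h had 25 of 10988 (0.228%) higher and 21 (0.191%) lower. The remaining AsPC-1 pairs had 45 of 11023 higher and 8 lower at 1 h, and 111 of 11388 higher and 276 lower at 24 h. Among the 3 EGF libraries of Panc-1, 13 of the 23 genes were highest at 5 h, 6 at 1 h and 4 at 24 h. Over all kept genes the shares were 13.1% at 5 h, 46.8% at 1 h and 40.1% at 24 h. Since these genes were chosen for a high EGF value at 5 h, that order is a description. The early group of the 6 holds EGR1, which was at 29.1, 3.30 and 1.88 RPKM after 1, 5 and 24 h of EGF, and DUSP6, at 46.05, 25.2 and 14.3 RPKM. PRSS22 was at 5.24, 14.0 and 8.50 RPKM and was highest at 5 h. ANGPTL4 was at 28.2, 43.7 and 88.9 RPKM and was highest at 24 h. With ANG, EGR1 was at 1.49, 0.75 and 1.47 RPKM at the same times, and DUSP6 at 13.7, 9.09 and 6.39 RPKM.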

How the data were processed

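Total RNA of serum-starved Panc-1 and AsPC-1 cells, extracted with TRIzol per the labels' protocols, was sequenced in 14 libraries. The authors deposited log2 RPKM values per gene, per the file headers, with hg19 as build in the submitters' processing notes. For aligner, counter, annotation and strand, the sources used here give nothing. Values were turned back to RPKM, and the lowest log2 value, -8.966, was read as 0, since 95.8% of values under 5 RPKM lay on steps of 0.01. Depth came from genes spanning 150 bp or less, whose values lay within 0.1 of whole reads. Gene counts were not rebuilt and no count model was used.

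Groups follow the titles in the labels. Differences are on log2(RPKM + 1). limma 3.58.1 in R 4.3.3 was run with a trend and Benjamini-Hochberg adjustment at 0.05 on genes with a span of at least 400 bp and 1 RPKM in at least 2 of the 12 treated libraries. Its model held the pair of line and time as block, the ligand, and a term of its own for the Panc-1 5 h pair. Repeats are pairs of line and time and not separate cultures of a condition, so p-values reflect the spread between pairs. That spread mixes differences of line and time with technical ones, which cannot be told apart. On simulated data the fit recovered 100% of 2-fold changes shared by the 5 other pairs, 200 genes, with 13 false calls. There each changed gene moved by the same amount in every pair, the Panc-1 5 h pair included. In the real fit CDKN1A (1.19, limma adjusted p = 0.153) and SPRY4 (1.07, limma adjusted p = 0.148) were not called. The simulated recovery therefore does not carry over to changes that vary between pairs.

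Genes were named by rule: the 15 highest and the 15 lowest differences, skipping unnamed loci, small RNAs and pseudogenes, up to 4 members of each of 31 gene lists, and a fixed set that includes EGFR, ANG and EGR1. Genes 2-fold apart or just outside that limit were named too. Members and lists were chosen with earlier results of these data known. Promoters were matched to RefSeq by symbol. Of the genes at least 2-fold higher, 1 is counted but not reported here.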

Additional observations from a re-analysis of the deposited data

Results flagged for a closer look

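Of the 164 named genes, 147 were measured in both lines, and in 3 the ligand difference had opposite signs in every pair of the 2 lines. These differences between lines were not tested. The share of such genes over all genes was not counted, so the 3 are a description only. Some signs rest on values near 0, as in AsPC-1 at 24 h for GCLC (-0.02) and EGLN3 (0.03). CLDN1, a tight junction claudin, was higher with EGF in the 3 Panc-1 pairs (0.28, 0.30 and 0.18 on log2(RPKM + 1) at 1, 5 and 24 h, mean 0.26) and lower in the 3 AsPC-1 pairs (-0.15, -0.74 and -1.03, mean -0.64). GCLC, a subunit of the enzyme that limits glutathione synthesis, averaged 0.28 over the Panc-1 pairs and -0.25 over the AsPC-1 pairs. EGLN3, an oxygen-sensing hydroxylase, averaged -0.37 over the Panc-1 and 0.13 over the AsPC-1 pairs.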

How the results depend on the processing

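The count of genes at least 2-fold higher with EGF was 23, and 58 with a pseudocount of 0.1, 88 without the filter on span, 131 at 1.5-fold and 2 at 3-fold. The count lower was 2, and 40, 58, 72 and 0 under the same settings, 0 at 5 RPKM or more in either library and 1 with centred libraries. The folds of 1.5 and 3 were chosen after seeing the data. The share of higher genes with mock nearer ANG was 37.9% of the 58 with a pseudocount of 0.1 and 44.4% of the 27 with centred libraries. Of 31 list medians, 28 moved by under 0.1 at 5 RPKM or more, where MAPK feedback genes were at 0.51, ANG and its partners at 0.0673 and circadian clock genes at -0.11. Without a filter on low values 28 likewise moved by under 0.1, and immediate-early genes were at 0.39, the EGF family at 0.0584 and urokinase and proteases at 0.0461.

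The limma count for the 5 other pairs was 2 higher. It was 4 with a pseudocount of 0.1 and 0 without a filter on low values, without a filter on span, without the replicate block of pairs, without a trend, and with 1 h and 5 h pairs only. Leaving out 1 pair at a time gave 0 to 4. For the difference of the Panc-1 5 h pair, no filter on low values gave 138 higher and 122 lower. Of these 260 genes 240 were under 1 RPKM in every library and 182 were listed at 0 in the other pairs. No filter on span gave 1 higher, the microRNA gene MIR487B (4.29 RPKM with EGF, 0 with ANG, span 84 bp). Depth limits low genes: at 1 RPKM the counting SD of a plain log2 difference is 0.417 for a 2 kb transcript.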
